A study of Mus musculus with 130 samples.

Results

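The comparison described here set liver RNA of 3 male C57BL/6J mice fed a diet with 500 ppm iron, which the labels call elevated, against that of 3 male C57BL/6J mice fed 50 ppm iron, which the labels call sufficient. These 6 mice were chosen by their diet labels out of 130 samples in the series. The diet study held 15 mice of this strain, 3 on each of 5 diets, and the other diets were chow, 2% carbonyl iron (20000 ppm) and 2% carbonyl iron with cellulose. The remaining libraries came from a panel of inbred strains on the 2% diet and were not used here. The labels give no age, no time on the diet and no hour of tissue collection for these mice, and no form of the iron at 50 or 500 ppm. RNA was purified from about 20 mg of the large lobe, and each diet group held 3 mice. The p-values rest on the spread between mice within a diet, estimated over all 5 diet groups together. Replicate numbers follow the order of deposition and are names only. Replicate 2 of the 500 ppm group lay apart from its 2 group mates, so most fold changes and list counts are given with and without it. Of 2127 genes called in 2% iron against 50 ppm, 739 (34.7%) lay nearer the 2% mean than the 50 ppm mean in this mouse. The numbers were 126 (5.92%) and 143 (6.72%) in its mates. Whether the diet label of replicate 2 is right was not tested, and every value with all mice rests on that label.

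Hepatocytes sense iron through the transferrin receptor TFR2, HFE and hemojuvelin, and through BMP6, a ligand that liver endothelial cells release when iron rises. BMP6 acts on BMP receptors and SMAD proteins to switch on Hamp, which encodes hepcidin, and feedback genes such as Id1, Smad6 and Smad7. Hepcidin blocks the iron exporter ferroportin, encoded by Slc40a1, and ferritin, built from Fth1 and Ftl1 chains, stores the iron that stays in the cell. Ferritin and the transferrin receptor are also controlled at the level of translation or messenger stability, which messenger counts show in part at most.

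Libraries held 10420708 to 14101577 counts in 5 of the 6 mice and 20357169 in 500 ppm replicate 2. Values are CPM, counts per 1000000 scaled with TMM factors. Mitochondrial transcripts took 7.22% to 8.00% of the counts. The 10 hepatocyte markers summed to between 80527 and 96982 CPM, the 12 exocrine pancreas markers to 6.57 to 10.2 CPM and the 5 muscle markers to 0.0719 to 0.291 CPM. The Y-linked Kdm5d, Uty, Ddx3y and Eif2s3y summed to between 174 and 182 CPM in all 6 mice.

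With all 6 mice, 0 of 13560 genes (0.0%) were called at an adjusted p under 0.05 by edgeR's quasi-likelihood test, and the lowest adjusted p was 0.933. At an unadjusted p under 0.05, 246 genes (1.81%) were higher and 182 (1.34%) lower on 500 ppm. Every 500 ppm mouse lay above every 50 ppm mouse in 3.3% of the genes and below in 3.95%. Without 500 ppm replicate 2, 0 of 13821 genes (0.0%) were called, with a lowest adjusted p of 1. Then 157 genes (1.14%) were higher and 268 (1.94%) lower at an unadjusted p under 0.05, and the groups did not overlap in 1083 genes (7.84%) that were higher and 1275 (9.23%) that were lower. Of the 428 and 425 genes at an unadjusted p under 0.05 in the fits with and without this mouse, 164 were in both, which is 38.3% of the first and 38.6% of the second. The median half-width of the 95% interval of a log2 fold change was 0.348 with all mice and 0.387 without replicate 2. The interval lay within 1 log2 unit of 0 for 81.2% and 76.4% of the genes. The verbs below therefore describe values, since no gene passed the adjusted test.

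All 53 genes on 10 iron lists, from hepcidin to heme handling, were tested, and heme synthesis and iron-sulfur assembly were counted apart. With all mice 27 were on the higher side and 26 on the lower side, with a median log2 fold change of 0.01 beside 0.00 over all genes. An unadjusted p under 0.05 was reached by 7 genes on the higher side, which were Hamp, Hamp2, Bmp6, Id4, Smad6, Smad9 and Atoh8, and by 0 on the lower side, beside 1.81% and 1.34% of all genes. Without 500 ppm replicate 2 Bmp6 alone was left at that level. The lowest adjusted p over the 53 genes was 1 in both fits by edgeR's quasi-likelihood test. Replicate 2 was the highest of the 6 mice in 19 of the 53 genes, while over all genes tested it was the highest in 21.9%.

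The hormone came first. Hamp (ENSMUSG00000050440, chromosome 7, 30942368 to 30944032 of GRCm38), the hepcidin gene, was at 203, 383.9 and 240 CPM in 50 ppm replicates 1, 2 and 3. It was at 484, 665 and 286 CPM in 500 ppm replicates 1, 2 and 3. The groups overlapped, because 500 ppm replicate 3 lay below 50 ppm replicate 2. The means were 276 ± 95.4 and 478 ± 190 CPM (SD, n = 3 each), and the log2 fold change was 0.79 (95% interval 0.15 to 1.44) with all mice and 0.48 (-0.16 to 1.12) without replicate 2. The adjusted p of edgeR's quasi-likelihood test was 1 in both fits. Hamp2, a mouse copy of hepcidin next to Hamp whose reads may be shared with it, was at 17.5, 34.9 and 30.3 CPM on 50 ppm and at 38.4, 184 and 21.9 CPM on 500 ppm. Replicate 2 stood far above the other 5 mice, and without it the log2 fold change went from 1.57 (SE 0.60) to 0.12 (SE 0.38). The 2% mice had 97.5 to 152 CPM of Hamp2 and 686 to 771 CPM of Hamp, so that replicate 2 lay above the 2% range for Hamp2 and below it for Hamp.

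The promoters of both hepcidin genes are shown because these genes differed in how far replicate 2 departed from its mates. Each window runs from 250 bases before the transcription start to 50 bases after it, from RefSeq on GRCm38.p6, minus strand, and lies at chr7:30943980-30944279 for Hamp and at chr7:30924132-30924431 for Hamp2. Capitals mark GGCGCC, the core of the BMP-responsive element, and TTCNNNGAA, the spaced repeat that STAT factors bind, each searched on both strands.
Hamp: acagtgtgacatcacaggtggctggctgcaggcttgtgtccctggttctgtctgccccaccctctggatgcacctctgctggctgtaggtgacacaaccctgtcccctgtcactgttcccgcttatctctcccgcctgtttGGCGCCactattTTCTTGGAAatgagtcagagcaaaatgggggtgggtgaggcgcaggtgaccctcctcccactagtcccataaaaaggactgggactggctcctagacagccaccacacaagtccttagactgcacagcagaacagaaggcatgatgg
Hamp2: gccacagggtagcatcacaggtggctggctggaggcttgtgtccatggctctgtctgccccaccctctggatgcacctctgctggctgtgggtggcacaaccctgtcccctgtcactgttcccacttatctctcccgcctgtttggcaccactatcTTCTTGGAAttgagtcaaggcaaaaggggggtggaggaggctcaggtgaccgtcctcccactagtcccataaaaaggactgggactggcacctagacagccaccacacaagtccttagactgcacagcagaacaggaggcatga
Hamp held 1 GGCGCC upstream of 1 TTCNNNGAA, which begins 97 bases before the start. Hamp2 held the second motif, 94 bases before the start, and no GGCGCC. The windows shared 276 of 297 aligned bases (92.9%). Of 32851 promoter windows in the table, 11.9% held GGCGCC and 8.30% held TTCNNNGAA.

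Of the 2 ligands, Bmp6 separated the diets and Bmp2 did not. Bmp6 (ENSMUSG00000039004, chromosome 13, 38345107 to 38500302) was at 4.07, 7.64 and 5.72 CPM on 50 ppm and at 8.61, 13.5 and 8.48 CPM on 500 ppm. All 3 mice on 500 ppm lay above all 3 on 50 ppm, and this held without replicate 2. The log2 fold change was 0.83 (SE 0.24, unadjusted quasi-likelihood p 0.00436, adjusted 1) with all mice and 0.56 (SE 0.24, unadjusted p 0.0375, adjusted 1) without replicate 2. On 2% iron Bmp6 was at 25.03 to 31.4 CPM, well above either group. Bmp2, the other ligand that acts on hepcidin, was at 14.8, 17.9 and 23.1 CPM on 50 ppm and at 24.1, 19.4 and 21.7 CPM on 500 ppm, with overlap and a log2 fold change of 0.22 (95% interval -0.38 to 0.81), and 0.29 (-0.38 to 0.97) without replicate 2.

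The receptors and transducers of the pathway stayed within narrow ranges. Of 9 sensing and receptor genes, 1 was higher and 8 lower with all mice, at log2 fold changes of -0.14 to 0.11. Without replicate 2 the split was 5 higher and 4 lower, at -0.07 to 0.16, and 0 had an unadjusted p under 0.05 in either fit. Tfr2, the hepatocyte transferrin receptor, was at 408.1, 360 and 363.7 CPM on 50 ppm and at 384.3, 376 and 335 CPM on 500 ppm. Tmprss6, the protease that cleaves hemojuvelin, was at 439, 371 and 398 CPM and at 412, 361 and 393 CPM. In both genes the groups overlapped, and the 95% intervals of the log2 fold change ran from -0.33 to 0.24 for Tfr2 and from -0.24 to 0.14 for Tmprss6. Without replicate 2 they ran from -0.40 to 0.26 and from -0.21 to 0.21. Hfe was at 28.98, 32.5 and 31.9 CPM on 50 ppm and at 32.9, 31.5 and 36.6 CPM on 500 ppm, and its groups separated once replicate 2, the lowest 500 ppm mouse, was left out (log2 fold change 0.16, 95% interval -0.04 to 0.36). The 3 SMAD transducer genes had log2 fold changes of -0.12 to 0.07, and of -0.05 to -0.01 without replicate 2.

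Among the 9 target genes of BMP and SMAD signalling, the values followed replicate 2. With all mice 8 were higher and 1 lower, with a median log2 fold change of 0.38. Without replicate 2 the split was 4 and 5 and the median -0.10. Replicate 2 was the highest of the 6 mice in 7 of the 9 genes. Id1, an inhibitor of helix-loop-helix factors and a sensitive BMP target, was at 5.14, 5.7998 and 4.64 CPM on 50 ppm and at 4.13, 21.4 and 4.53 CPM on 500 ppm. Replicate 2 lay between the 50 ppm mice and the 31.8 to 35.5 CPM of the 2% mice, while its mates lay below all 50 ppm mice. Smad7, an inhibitor of BMP receptors, was at 13.8, 15.4 and 12.1 CPM on 50 ppm and at 10.8, 32.8 and 14.8 CPM on 500 ppm. Smad9 was at 10.2, 20.3 and 15.2 CPM on 50 ppm and at 21.8, 35.7 and 17.6 CPM on 500 ppm. Replicates 1 and 2 lay above all 50 ppm mice for Smad9, and its log2 fold change was 0.73 (SE 0.29) with all mice and 0.37 (SE 0.27) without replicate 2. Atoh8, a factor that acts on the Hamp promoter, was at 21.03, 24.2 and 23.04 CPM on 50 ppm and at 22.6, 32.1 and 33.2 CPM on 500 ppm. Here replicates 2 and 3 were both high and replicate 1 was within the 50 ppm range. The log2 fold change of Atoh8 was 0.37 (SE 0.15) with all mice and 0.30 (SE 0.17) without replicate 2. In Id4, at 0.967 to 1.84 CPM on 50 ppm, replicate 2 had 4.99 CPM and its mates 1.72 and 1.94 CPM.

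**Figure D1:**
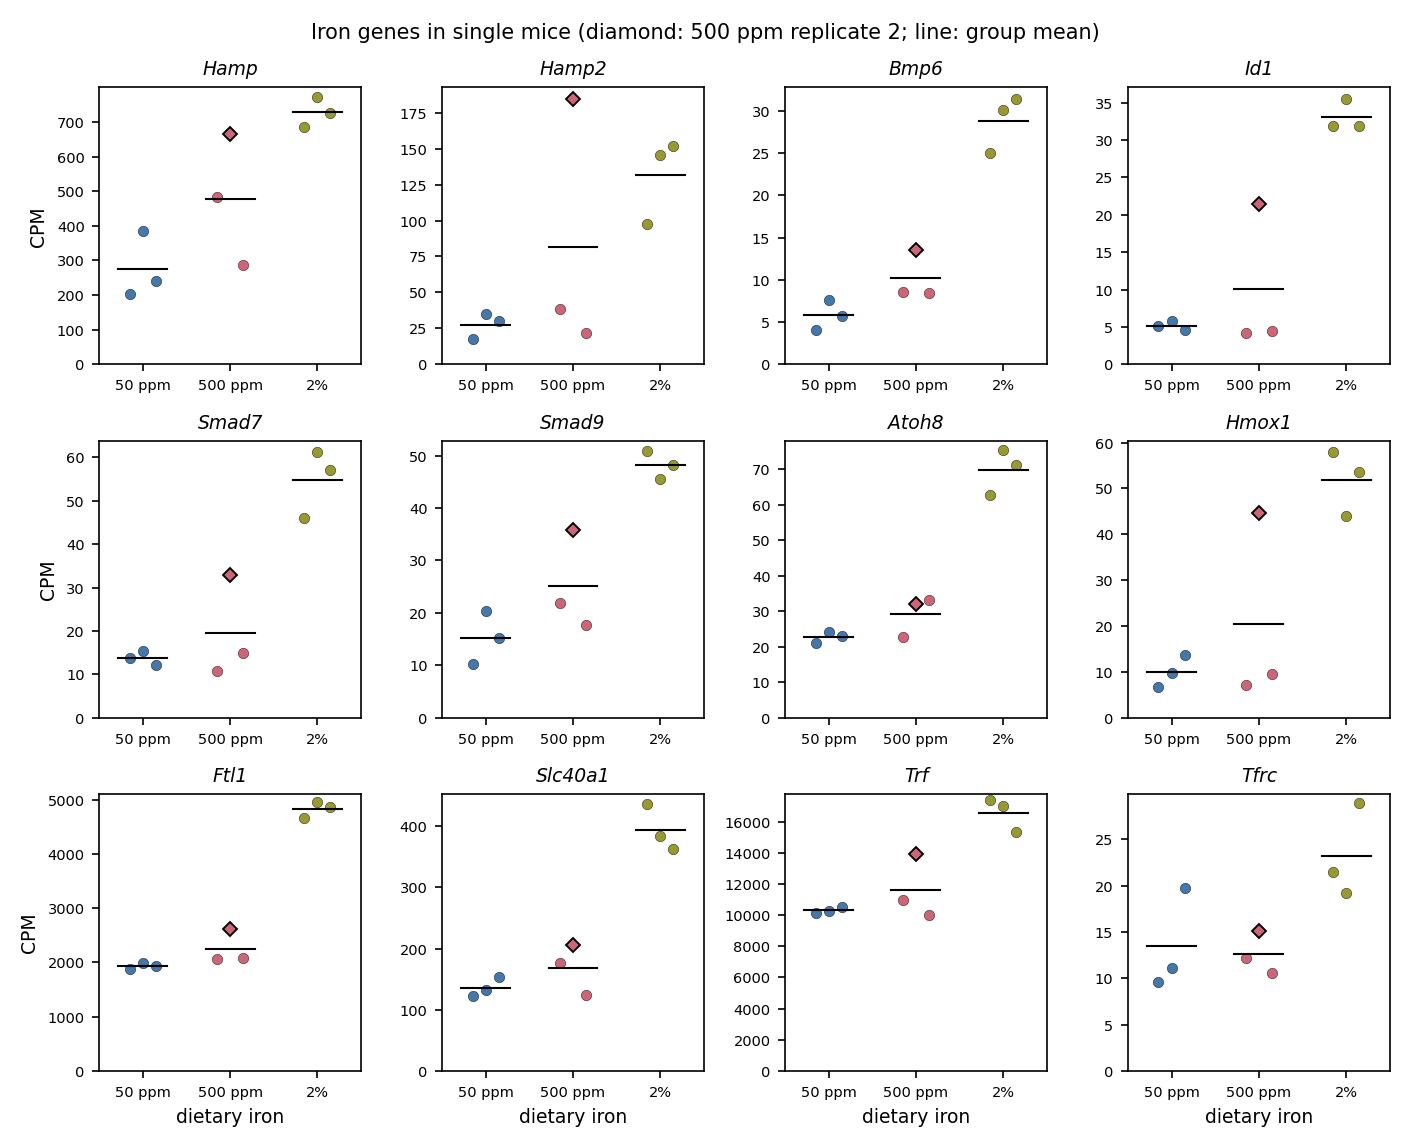
CPM of 12 iron genes in single mice on 50 ppm, 500 ppm and 2% iron (linear axes from 0; circles are mice, the diamond is 500 ppm replicate 2, lines are group means). Bmp6 and Ftl1 separate the 50 and 500 ppm mice, while for Hamp2, Id1, Smad7 and Hmox1 the 500 ppm mean is set apart by the diamond.

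Storage, uptake and export genes differed by small amounts. Ftl1, the ferritin light chain, was at 1869, 1994 and 1934 CPM on 50 ppm and at 2062, 2618 and 2082 CPM on 500 ppm, with possible read sharing among its pseudogenes. Every 500 ppm mouse was above every 50 ppm mouse, with a log2 fold change of 0.22 (95% interval -0.04 to 0.49), and 0.10 (-0.15 to 0.36) without replicate 2. Fth1, the heavy chain, was at 885, 959 and 973 CPM and at 898, 877 and 921 CPM in the same order, with overlap and a log2 fold change of -0.06 (95% interval -0.31 to 0.18), and -0.05 (-0.32 to 0.23) without replicate 2. Slc40a1, encoding ferroportin, was at 122, 132 and 154 CPM on 50 ppm and at 176, 206 and 124 CPM on 500 ppm. Replicate 3 lay within the 50 ppm range and the other two above it, and the log2 fold change was 0.31 (95% interval -0.02 to 0.65) with all mice and 0.14 (-0.18 to 0.47) without replicate 2. Trf, the plasma iron carrier transferrin, was at 10107, 10255 and 10513 CPM and at 10951, 13899 and 9985 CPM. Its 500 ppm mice lay on both sides of the 50 ppm range. The log2 fold change of Trf was 0.17 (95% interval -0.14 to 0.49) with all mice and 0.02 (-0.27 to 0.32) without replicate 2. Tfrc, whose messenger is protected by iron regulatory proteins when iron is scarce, was at 9.60, 11.1 and 19.7 CPM on 50 ppm and at 12.1, 15.1 and 10.6 CPM on 500 ppm, fully within the 50 ppm range. The iron regulatory protein gene Ireb2 was at 105.6, 105.6 and 108.97 CPM on 50 ppm and at 95.5, 94.2 and 103.04 CPM on 500 ppm, without overlap and with a log2 fold change of -0.13 (95% interval -0.30 to 0.04), and -0.10 (-0.30 to 0.09) without replicate 2. Pcbp2, an iron chaperone, was also lower without overlap, at 195, 201 and 204 CPM against 187, 194 and 189 CPM. The 3 iron genes higher without overlap were Bmp6, Ftl1 and Slc48a1, a heme transporter, and the 2 lower were Ireb2 and Pcbp2, beside 3.3% and 3.95% of all genes, so these counts are near the background. Without replicate 2 there were 6 higher and 5 lower of the 53, beside 7.84% and 9.23% of all genes.

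Among 10 heme handling genes replicate 2 was the highest of the 6 mice in 3 and the lowest in 2. Hmox1, the heme-degrading enzyme, was at 6.78, 9.67 and 13.6 CPM on 50 ppm and at 7.14, 44.7 and 9.49 CPM on 500 ppm. Replicate 2 reached the 44.003 to 57.8 CPM of the 2% mice, and the other two lay in the 50 ppm range. The log2 fold change of Hmox1 was 1.06 (95% interval -0.05 to 2.17) with all mice and -0.27 (-0.84 to 0.30) without replicate 2. Hpx, which binds free heme in plasma, was at 2045, 2095 and 1991 CPM on 50 ppm and at 1868, 3267 and 1595 CPM on 500 ppm. Its mates were below and replicate 2 above all 50 ppm mice. Alas1, the first enzyme of heme synthesis, was at 185, 255.7 and 179 CPM and at 315, 203 and 120 CPM, so that the 500 ppm mice spanned both ends. The 8 heme synthesis genes had log2 fold changes of -0.09 to 0.10, and the 11 genes of iron-sulfur assembly and mitochondrial iron of -0.12 to 0.13, and of -0.13 to 0.21 and -0.10 to 0.12 without replicate 2. Neither list had a gene at an unadjusted p under 0.05 in either fit.

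The 2% mice give a scale for these values, although the 50 ppm mice enter both comparisons. In 2% iron against 50 ppm 2127 genes were called, 23 of them on the iron lists. Of these 23, 12 in 500 ppm replicate 2 lay nearer the 2% mean than the 50 ppm mean in log2 CPM, beside 1 in replicate 1 and 0 in replicate 3. Over all 2127 genes the numbers were 739 in replicate 2, 126 in replicate 1 and 143 in replicate 3.

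The distance of replicate 2 was described over the 9554 genes whose mean on 500 ppm reached 5 CPM. In 208 of them (2.18%) replicate 2 lay more than 2-fold from the mean of its 2 group mates, in 153 above and in 55 below. The same count was 128 for replicate 1, 125 for replicate 3 and 73 to 126 in the 50 ppm mice. Replicate 2 was also the deepest library of the 6, and thinned to the mean depth of its mates it gave 215 genes. In the other diet groups the highest count was 180, in replicate 3 on 2% iron with cellulose. Replicate 2 had been singled out by its values, so these counts carry no test.

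**Figure D2:**
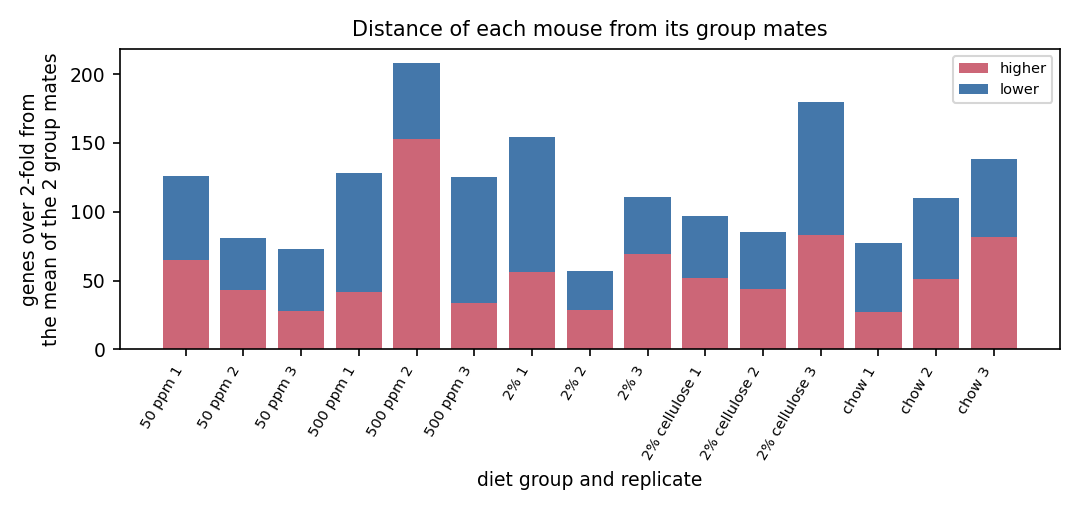
Number of genes over 2-fold from the mean of the 2 group mates in log2 CPM, for each of the 15 diet mice (bars from 0, red part higher, blue part lower). The bar of 500 ppm replicate 2 reaches 208 genes, of which 153 are higher, and the other 5 mice of the comparison reach 73 to 128.

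The genes highest in replicate 2 against its mates included 6 of the female-biased list, genes higher in female than in male mouse liver. Cyp2b9, a cytochrome P450, was at 0.0969, 2.80 and 1.57 CPM on 50 ppm and at 0.861, 145 and 0.144 CPM on 500 ppm. Cux2, a female-specific liver repressor, was at 0.775, 0.387 and 2.15 CPM and at 1.55, 24.03 and 0.791 CPM. In both genes 5 mice were low and replicate 2 alone was high. Others among the 10 highest were Cyp2b13, Cyp2a4, Slc22a26, Cyp3a44, Serpina3c, Cyp2c39 and Slc22a27, and many of them have close paralogs that can share reads. Of the 15 tested genes on the female-biased list, 14 were higher with all mice and 8 of these had an unadjusted p under 0.05, beside 1.81% of all genes, with a median log2 fold change of 3.01. Without replicate 2, 6 were higher and 9 lower, 0 had an unadjusted p under 0.05 and the median was -0.04. The list summed to 785 CPM in replicate 2 and to 117 to 305 CPM in the other 5 mice, beside 391.7 to 719.8 CPM in the 2% mice. The summed Y-linked level of replicate 2 was 174 CPM, beside 175 to 182 CPM in the other mice.

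The male-biased liver genes were more mixed. Replicate 2 was the lowest of the 6 mice in 10 of 22, and 50 ppm replicate 1 stood high in this list. Mup17, a major urinary protein gene with close copies, was at 1317, 320 and 216 CPM on 50 ppm and at 854, 232 and 1043 CPM on 500 ppm, so that each group held both high and low mice. The list summed to between 19371 and 50145 CPM on 50 ppm and to between 15578 and 33240 CPM on 500 ppm. Its median log2 fold change was -0.25 with all mice and -0.05 without replicate 2. C8a, a complement gene, was the only member with an unadjusted p under 0.05 with all mice, at 836, 465 and 581 CPM against 484, 403 and 477 CPM, where the groups overlapped.

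**Figure D3:**
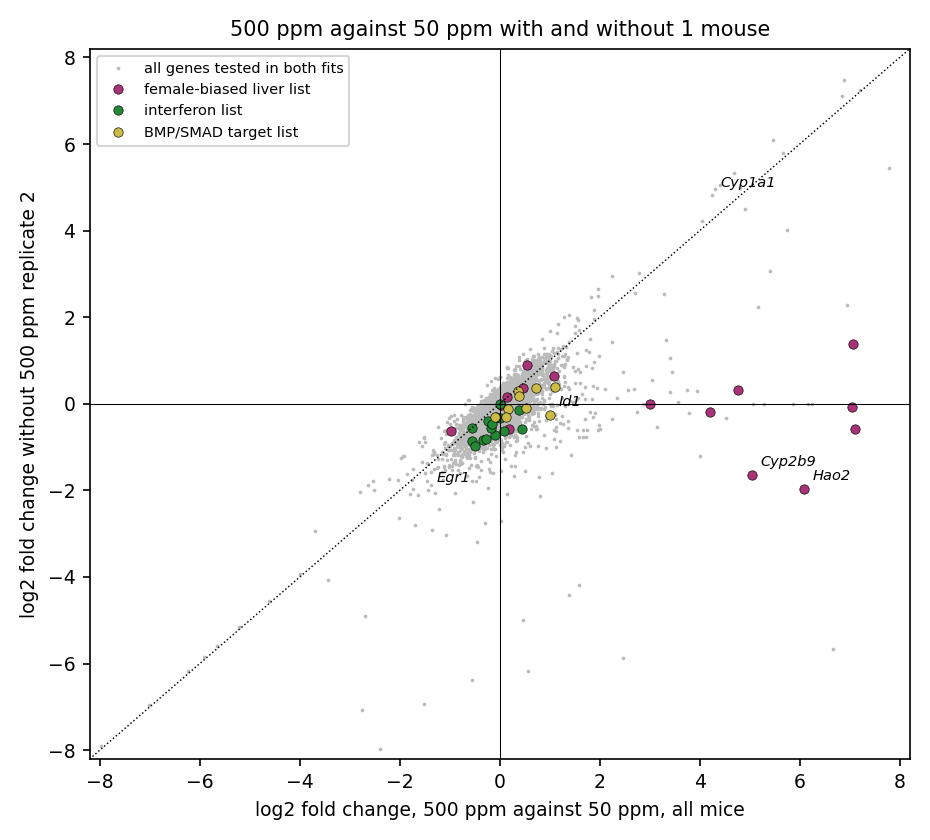
Log2 fold change of 500 ppm against 50 ppm for each gene with all mice (x axis) and without 500 ppm replicate 2 (y axis), with 3 gene lists coloured and the line of equal values dotted. The female-biased genes reach 7.10 on the x axis and lie between -1.96 and 1.38 on the y axis, and 14 of 15 interferon genes lie below 0 on the y axis.

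Markers of blood and immune cells differed in where replicate 2 stood. All 8 tested neutrophil markers were higher with all mice, 7 of them with replicate 2 as the highest of the 6, and 3 were higher and 5 lower without it. Of the lymphocyte markers all 9 tested were lower with all mice, at a median of -0.40, and replicate 2 was the highest in 0. Without it 2 were higher and 8 lower, at a median of -0.51. The summed level of the neutrophil marker list was 53.6 CPM in replicate 2, 17.9 and 5.39 CPM in its mates and 7.37 to 17.7 CPM on 50 ppm. Lcn2, an iron-siderophore binding protein on that list which hepatocytes also make, held most of it, at 5.33, 15.3 and 6.63 CPM on 50 ppm and 14.3, 40.3 and 3.81 CPM on 500 ppm. Mpo, a neutrophil granule enzyme, was at 0 to 0.0967 CPM on 50 ppm and at 0.0861, 2.37 and 0.0719 CPM on 500 ppm. Replicate 2 was also the highest in Hba-a1, an alpha globin gene with a near copy, at 7.17, 19.9 and 8.12 CPM on 50 ppm and 3.87, 53.2 and 7.41 CPM on 500 ppm. Of the 6 erythroid markers tested with all mice, 4 were higher and 2 lower. In 4 of them replicate 2 was the highest of the 6 mice, and in 1 the lowest. Without replicate 2, 0 of the 7 erythroid markers tested were higher, at a median of -0.71. In liver tissue more cells of a type and more RNA per cell cannot be told apart, and the part of these cells in the other results was not tested. None of the 11 neutrophil markers was at 0 in all 6 mice, and S100a8, a granulocyte marker, was at 0 in both mates of replicate 2. Marco, a scavenger receptor of Kupffer cells, was at 2.42, 2.03 and 5.97 CPM and at 3.19, 25.4 and 4.46 CPM, with replicate 2 alone in the 25.3 to 37.6 CPM range of the 2% mice. Clec4f, which defines Kupffer cells, was at 35.9, 53.7 and 54.2 CPM and at 35.98, 62.6 and 43.6 CPM, a much smaller spread. Of the 11 Kupffer cell markers tested, 4 were higher and 7 lower with all mice, at a median of -0.01. Marco had the largest rise among them, and replicate 2 was the highest of the 6 mice in 6 of the 11.

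Several metabolic lists placed replicate 2 at an end of the 6 mice. It was the lowest in 10 of 10 central vein zone genes, beside 21.98% over all genes tested. Their sum was 5848 CPM against 7941 to 10083 CPM in the other 5. The 10083 CPM were in 500 ppm replicate 3 and held 3080 CPM of Cyp1a2, a list member high in that mouse alone. Cyp2e1, an ethanol-oxidising P450 of that zone, was at 6906, 5409 and 6679 CPM on 50 ppm and at 5699, 4151 and 4930 CPM on 500 ppm. The groups overlapped, and the log2 fold change was -0.36 (SE 0.13, unadjusted quasi-likelihood p 0.0156, adjusted 1) and -0.25 (SE 0.13, unadjusted p 0.0716, adjusted 1) without replicate 2. Replicate 2 was the lowest in 14 of 24 cholesterol synthesis genes and in 11 of 17 fatty acid oxidation genes. It was the highest in 12 of 19 acute phase genes. The cholesterol list had 4 genes higher and 20 lower with all mice, at a median of -0.09. Without replicate 2 it had 15 higher and 9 lower, at a median of 0.03. The fatty acid oxidation list had 8 higher and 9 lower with all mice, and 13 higher and 4 lower without replicate 2. The acute phase list had 13 higher and 6 lower with all mice, and 5 higher and 14 lower without replicate 2. Ccnd1, a cyclin of G1 phase, was at 20.1, 15.3 and 12.3 CPM on 50 ppm and at 21.8, 98.97 and 22.6 CPM on 500 ppm. Its groups did not overlap, and replicate 2 lay within the 49.6 to 130 CPM of the 2% mice.

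**Figure D4:**
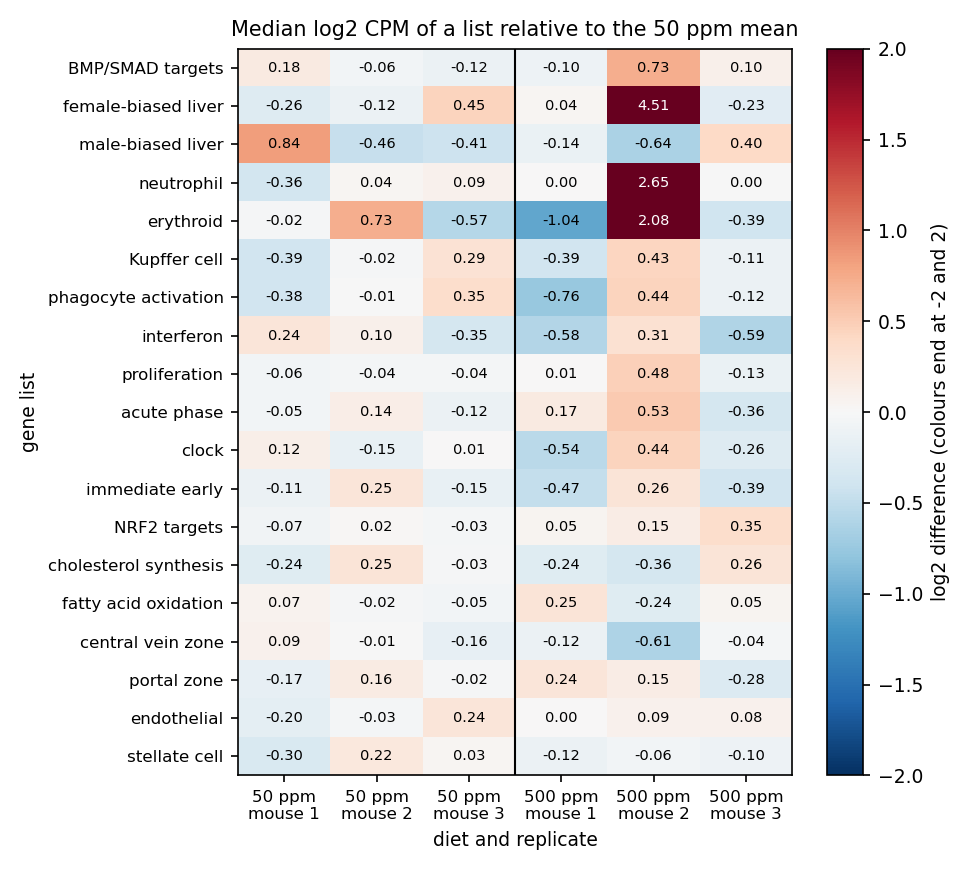
Median over the tested members of 19 gene lists of log2 CPM minus the mean log2 CPM of the 3 mice on 50 ppm, for each mouse (columns) and list (rows). In replicate 2 of the 500 ppm group the female-biased list is at 4.51, the neutrophil list at 2.65 and the central vein zone list at -0.61, and the interferon list is at -0.58 and -0.59 in its mates.

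Clock-controlled genes differed among mice of one diet. Dbp, a clock output factor, was at 44.2, 5.90 and 31.99 CPM on 50 ppm and at 1.81, 57.1 and 6.04 CPM on 500 ppm. Per3, a period gene, was at 12.1, 3.77 and 11.02 CPM on 50 ppm and at 2.32, 48.3 and 3.52 CPM on 500 ppm. Ciart, a repressor in the clock loop, was at 1.45, 2.13 and 2.82 CPM and at 1.29, 14.4 and 0.647 CPM. Replicate 2 was the highest of the 6 in all 3 genes, and 50 ppm replicate 2 was low in Dbp and Per3. Over the 18 clock genes replicate 2 was the highest in 9 and the lowest in 3. With all mice 10 were higher and 8 lower, and without replicate 2 the split was 6 and 12. The median log2 fold change of the list was 0.11 with all mice and -0.45 without replicate 2. Nr1d1, a heme-binding repressor of the clock, was lower without overlap at 128, 83.7 and 106.1 CPM on 50 ppm and 48.8, 82.9 and 75.6 CPM on 500 ppm (log2 fold change -0.62, 95% interval -1.43 to 0.20, and -0.77, -1.72 to 0.18, without replicate 2). The hour of collection is not in the labels, and its part in these values was not tested. The promoters of Ciart and Per3 are shown because both genes were high in the same mouse, with the E-box CACGTG and the D-box TTATGTAA in capitals, again from RefSeq on GRCm38.p6, minus strand, at chr3:95882179-95882478 and chr4:151044616-151044915.
Ciart: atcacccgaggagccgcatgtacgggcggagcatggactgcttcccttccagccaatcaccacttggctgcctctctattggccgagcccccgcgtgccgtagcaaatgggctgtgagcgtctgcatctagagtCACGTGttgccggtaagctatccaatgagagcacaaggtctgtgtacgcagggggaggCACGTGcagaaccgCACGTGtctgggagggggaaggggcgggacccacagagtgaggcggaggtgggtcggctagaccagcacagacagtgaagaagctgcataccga
Per3: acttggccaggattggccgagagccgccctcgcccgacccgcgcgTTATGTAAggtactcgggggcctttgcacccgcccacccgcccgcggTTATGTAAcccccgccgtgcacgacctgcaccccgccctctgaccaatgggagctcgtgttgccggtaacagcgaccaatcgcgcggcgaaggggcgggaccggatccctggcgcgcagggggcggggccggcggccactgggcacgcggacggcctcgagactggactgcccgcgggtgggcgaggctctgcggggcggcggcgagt
The Ciart window held 3 matches to CACGTG, which begin 116, 58 and 44 bases before the start, and the Per3 window held 2 matches to TTATGTAA, which begin 205 and 158 bases before it. Both motifs were searched on both strands. The Ciart window held no TTATGTAA and the Per3 window no CACGTG, so the windows shared neither motif. Of all promoter windows 7.15% held CACGTG and 0.938% held TTATGTAA.

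Replicate 3 of the 500 ppm group stood apart in other genes, chosen after their values were seen. Cyp1a1, the classic target of the aryl hydrocarbon receptor, was at 0.388, 1.93 and 0.249 CPM on 50 ppm and at 0.516, 0.436 and 47.02 CPM on 500 ppm. Cyp1a2, a second target of that receptor, was at 399, 295 and 179 CPM on 50 ppm and at 193.2, 155 and 3080 CPM on 500 ppm. In both genes 5 mice were low and replicate 3 alone was high. Cyp1a1 had a log2 fold change of 4.24 (SE 1.41, adjusted p 1 by edgeR's quasi-likelihood test), and 4.82 without replicate 2, that rests on this mouse. The metallothionein Mt2, a metal-binding protein, was at 7.56, 16.7 and 16.7 CPM on 50 ppm and at 18.1, 77.3 and 2.23 CPM on 500 ppm. Replicate 3 was the lowest and replicate 2 the highest of the 6 for this gene.

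**Figure D5:**
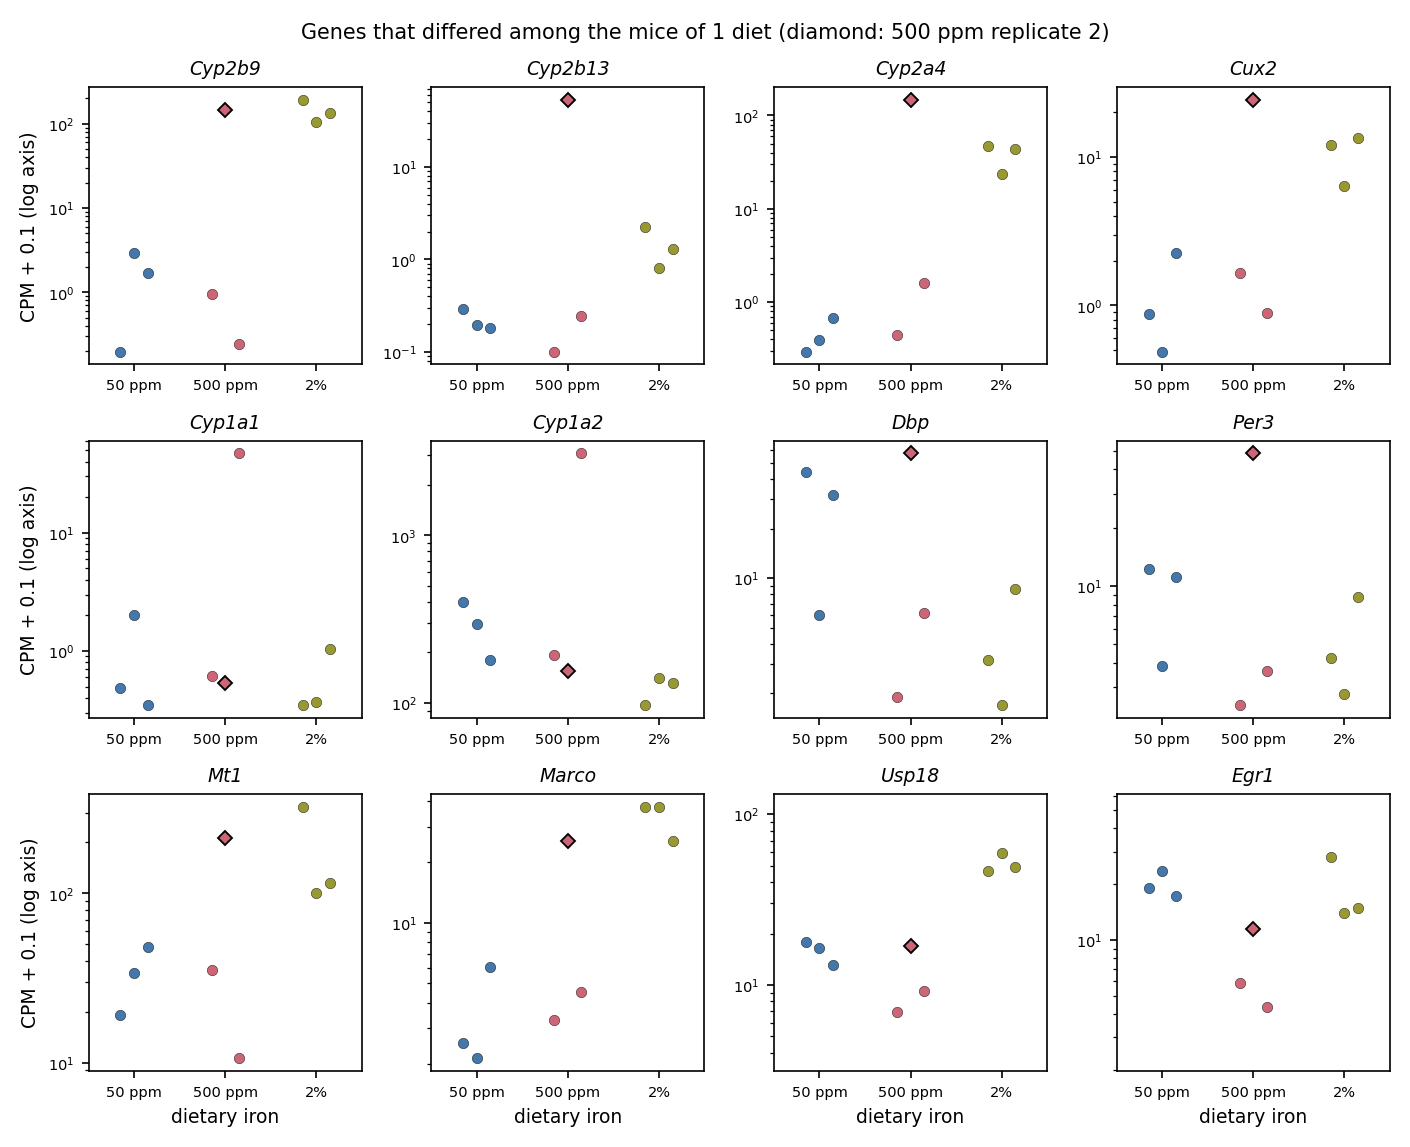
CPM plus 0.1 (log axes) of 12 genes in single mice on 50 ppm, 500 ppm and 2% iron, where circles are mice and the diamond is 500 ppm replicate 2. The diamond is alone at the top of its diet for Cyp2b9, Cyp2b13, Cyp2a4, Cux2 and Per3, replicate 3 is alone at the top for Cyp1a1 and Cyp1a2, and all 3 mice on 500 ppm lie below those on 50 ppm for Egr1.

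Replicate 2 was the highest of the 6 mice in 158 of the 246 genes higher at an unadjusted p under 0.05 with all mice. Over all genes tested it was the highest in 21.9%. The 246 genes were chosen as higher on 500 ppm with its values included, so the 158 are a description only. Of the 428 genes at that level in either direction, 17 changed direction without replicate 2. Cd180 (ENSMUSG00000021624, chromosome 13, 102693558 to 102739629), a toll-like receptor relative of B cells and macrophages, was at 2.62, 2.03 and 2.15 CPM on 50 ppm and at 0.603, 0.872 and 0.863 CPM on 500 ppm. The groups were well apart, with a log2 fold change of -1.50 (SE 0.27, adjusted p 0.933 by edgeR's quasi-likelihood test) and of -1.60 (SE 0.33, adjusted p 1) without replicate 2. Counts are few at these levels. On 2% iron Cd180 was at 5.22, 5.07 and 4.01 CPM, above both groups, and on chow at 1.22, 0.839 and 1.67 CPM. Egr1, an immediate early transcription factor, was at 18.9, 23.4 and 17.2 CPM on 50 ppm and at 5.77, 11.3 and 4.24 CPM on 500 ppm, with a log2 fold change of -1.44 (SE 0.57) and of -1.99 (SE 0.68) without replicate 2. Nr0b2, which encodes the bile acid-induced repressor SHP, was at 35.7, 37.1 and 25.9 CPM and at 10.8, 18.4 and 20.5 CPM. All 3 mice on 500 ppm were lower in Egr1 and in Nr0b2, and the log2 fold change of Nr0b2 was -0.98 (SE 0.43) and -1.06 (SE 0.51) without replicate 2. The guanylate-binding protein genes Gbp10 and Gbp8, which interferon induces, were lower without overlap too, with log2 fold changes of -1.43 (SE 0.51) and -0.90 (SE 0.30) with all mice and -1.40 and -1.06 without replicate 2, and Gbp10 has close paralogs. The remaining genes of this kind with the largest differences were Tgtp2, Cyp3a16, Eaf2, Adarb2 and Nhej1, at log2 fold changes of -1.74 to -0.88, and they ranged from 0 to 6.77 CPM in single mice.

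On the higher side, the genes without overlap with the largest differences were Serpina3c, Ccnd1, Itga2b, Smim3, Ms4a6d, Xlr3a, Cd209c, Olfr656, Nexn and Bmp6. Serpina3c, a serine protease inhibitor gene with close paralogs, was at 4.65, 4.25 and 4.14 CPM on 50 ppm and at 5.85, 186.5 and 4.89 CPM on 500 ppm. Its log2 fold change was 3.94 (SE 1.07) with all mice and 0.30 (SE 0.28) without replicate 2. Xlr3a, an X-linked gene of a family with near-identical copies, was at 3.49, 3.58 and 3.07 CPM on 50 ppm and at 9.21, 4.65 and 5.75 CPM on 500 ppm. For Xlr3a replicate 2 was the lowest 500 ppm mouse, and the log2 fold change was 0.93 (SE 0.30) with all mice and 1.14 (SE 0.31) without it. Irs2, an adaptor of insulin signalling named from the glucose list, was at 27.7, 35.7 and 31.3 CPM and at 40.98, 39.8 and 44.01 CPM, with all 3 mice on 500 ppm above and a log2 fold change of 0.40 (SE 0.18), and 0.43 (SE 0.20) without replicate 2.

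Without replicate 2, the genes without overlap with a mean of at least 1 CPM, an unadjusted p under 0.05 and the largest differences on the higher side were Xlr3a, Tmem120b, Mis18a, Nat1, Skint8, Olfr365, Zfp94, Hlx, Map9 and Prl8a1, at log2 fold changes of 0.75 to 1.14. Hlx, a homeobox factor, was at 3.00, 4.16 and 3.89 CPM on 50 ppm, at 6.198 and 6.47 CPM in 500 ppm replicates 1 and 3 and at 3.83 CPM in replicate 2. On the lower side, by the same limits, they were Ptger1, Egr1, Cyp3a16, Cd180, Efna3, Prok1, Cd33, Ciita, Gbp10 and Upp2, at log2 fold changes of -2.90 to -1.30. Ciita, the activator of class II antigen presentation genes, was at 1.26, 1.35 and 2.07 CPM on 50 ppm and at 0.689, 1.26 and 0.503 CPM on 500 ppm. Cd33, a myeloid surface lectin, was at 1.45, 1.74 and 2.15 CPM and at 0.430, 2.28 and 0.863 CPM, where replicate 2 was above and its mates below all 50 ppm mice. Ptger1, at the -2.90 end, was at 1.45, 1.16 and 1.99 CPM on 50 ppm and at 0.258, 1.21 and 0.144 CPM on 500 ppm. Its value in replicate 2 lay within the 50 ppm range. Several of the genes named in this paragraph were near 1 CPM, where counts are few, among them Cd33, Ciita, Ptger1, Efna3, Cyp3a16, Nat1 and Map9.

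The interferon list stood lower in the other 2 mice on 500 ppm. Without replicate 2, 14 of its 15 genes were lower and 6 had an unadjusted p under 0.05, beside 1.94% of all genes on the lower side, with a median log2 fold change of -0.57. With all mice 10 were lower and 1 had an unadjusted p under 0.05, with a median of -0.17. Usp18, which removes the ubiquitin-like ISG15, was at 17.8, 16.4 and 12.9 CPM on 50 ppm and at 6.89, 16.9 and 9.06 CPM on 500 ppm. Its log2 fold change without replicate 2 was -0.97 (SE 0.19, adjusted p 1 by edgeR's quasi-likelihood test). Irf7, an interferon-induced transcription factor, was at 46.04, 40.5 and 29.8 CPM and at 22.04, 61.1 and 25.2 CPM. In both genes replicates 1 and 3 lay below all 50 ppm mice, while replicate 2 lay within that range for Usp18 and above it for Irf7. On 2% iron these genes were at 46.6 to 58.9 CPM for Usp18 and 129 to 145 CPM for Irf7, above both groups. Markers of immune cells were on the same side without replicate 2. Then 10 of 11 Kupffer cell markers and 12 of 14 phagocyte activation genes were lower, at medians of -0.39 and -0.48. The Kupffer markers summed to 167, 229 and 275 CPM on 50 ppm and to 159, 307 and 195 CPM on 500 ppm, and their part in the interferon values was not tested. The endothelial markers, at 6 higher and 6 lower without replicate 2, were evenly split.

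Of 22 NRF2 targets, 17 were higher with all mice and 16 without replicate 2, at medians of 0.15 and 0.20, and 0 had an unadjusted p under 0.05 in either fit. Nqo1, a quinone reductase and NRF2 target, was at 2.81, 3.48 and 3.89 CPM on 50 ppm and at 3.87, 5.13 and 4.31 CPM on 500 ppm. The 7 heat shock genes were 4 higher and 3 lower with all mice, at a median of 0.01, and all 7 were higher without replicate 2, at a median of 0.27. Hsp90aa1, a chaperone on that list, was at 139, 112.5 and 117 CPM and at 147, 111.6 and 175 CPM, with a log2 fold change of 0.39 (SE 0.12) without replicate 2. Gdf15, a stress hormone, was lower without overlap, at 5.52, 5.99 and 8.12 CPM against 2.75, 3.44 and 3.02 CPM (log2 fold change -1.08, 95% interval -2.32 to 0.15, and -1.18, -2.70 to 0.33, without replicate 2). The 16 tested fibrosis genes had 8 on either side, and 5 of 17 were higher and 12 lower without replicate 2, with 0 at an unadjusted p under 0.05 in either fit. The 11 stellate cell markers summed to 324 to 465 CPM on 50 ppm and to 370.2 to 401 CPM on 500 ppm.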

How the data were processed

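Liver RNA of 6 mice, sequenced with a stranded kit per the labels, was compared, and per the submitters' processing notes kallisto 0.46 and mm10 were used. The authors deposited expected counts per gene, not normalized, and TPM for the same genes. These estimated counts were rounded before testing. Symbols came from GENCODE M21 (GRCm38) and matched 34924 of 35274 identifiers.

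Genes were tested with edgeR 4.0.16 in R 4.3.3 (glmQLFit and glmQLFTest, TMM factors, filterByExpr), two-sided, with Benjamini-Hochberg adjustment over all genes tested. All 15 diet mice in 5 groups were fitted together, with and without 500 ppm replicate 2. Errors of fold changes are SE or 95% intervals. Log2 CPM used a prior count of 2. With 3 mice against 3 an exact permutation test cannot go below 0.1 and with 2 against 3 below 0.2, so none was run. Alternatives were scaling with RLE factors, testing without the filter or with a minimum of 10 counts per library, the 2 groups alone, DESeq2 1.42.0, limma 3.58.1 on log2(TPM + 1) and log2(TPM + 0.1), each mouse left out, and, added after seeing the data, replicate 2 thinned to the depth of its mates. The fit was tested on simulated data. Python 3.11.15 drew figures with matplotlib 3.10.9.

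The gene lists, the comparison and the rules were chosen with earlier results of these data known. Named were genes of the iron lists, the 10 largest differences in each direction without overlap at an unadjusted p under 0.05 and a mean of at least 1 CPM in each fit, the 10 genes farthest from their mates in replicate 2 in each direction at a mean of at least 5 CPM, and members of the other lists. Results for some list members are not reported here.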

Additional observations from a re-analysis of the deposited data

How the results depend on the processing

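The count of called genes was 0 under every alternative run with all mice, and ranged from 0 to 0 when each of the 6 mice was left out. At an unadjusted p under 0.05 the numbers higher and lower were 246 and 182 in edgeR's quasi-likelihood test, 164 and 163 with the 2 groups alone, 169 and 211 with limma on log2(TPM + 1), 190 and 213 on log2(TPM + 0.1), 157 and 268 without 500 ppm replicate 2 and 434 and 238 without 500 ppm replicate 3. They were 465 and 253 without the filter, which tests more genes, and 299 and 282 without 50 ppm replicate 2. Without 500 ppm replicate 2 the count was also 0, except that leaving out 500 ppm replicate 1 as well gave 2 genes (range 0 to 2), Cyp1a1 and Cyp1a2, where replicate 3 is alone in its group and is assumed to vary like the other groups. The distance of replicate 2 was 208 genes, 150 on log2(TPM + 1), 212 with a prior count of 0.5 and 215 after thinning. Of the genes followed singly, 24 changed sign without 500 ppm replicate 2, 14 without replicate 3 and 6 without replicate 1, and 9 did on either TPM scale. No paired analysis was possible because the labels give no replicate numbers. The depth of these libraries leaves genes near 1 CPM with few counts, and 3 mice per diet leave intervals of about 0.348 log2 units on either side of a typical estimate.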

Other observations

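Klf10, a transcription factor, took 25.7% to 32.2% of the TPM of each diet library, with 32.2% in 500 ppm replicate 2, but 3.18% to 4.39% of the counts. The cause was not tested.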
